A study of Mus musculus with 3 samples.

Results

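Lysosomal gene expression was followed through a time course of lipopolysaccharide (LPS), a bacterial cell wall component, in the mouse macrophage line RAW264.7. The set was a fixed list of 42 genes that encode cathepsins, other lysosomal hydrolases, their activators and inhibitor, lysosomal membrane proteins and subunits of the vacuolar proton pump. All probe sets annotated to a single member were read. Of the 42 genes, 41 had such a probe set, giving 78 of the 22690 probe sets on the array and 41 of the 12393 named genes. The remaining member, Atp6v0c, was not analysed here.

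The 3 samples were RAW264.7 cells at 0 h, 2 h and 12 h of LPS, with 1 array at each time. The labels give no dose of LPS, no genotype beyond the line and no untreated culture at 2 or 12 h, so LPS cannot be told apart from time in culture. RAW264.7 is a transformed line, and its cells can also be driven to form osteoclasts. Single arrays allow no test between times, and no p-value is given. Signals are linear and scaled to one trimmed mean per array, and more or less mRNA per cell overall would leave them the same. A floor of 34.96, the 40th percentile of all scaled signals, was set under low values. A gene under the floor at 1 of the times compared has only a bound, written "at least", and a gene under it at both has no fold. A gene counts as higher or lower where its signals differ at least 2-fold. For a gene with several probe sets the brightest one is given unless another is named. The only error the arrays hold is how far probe sets for the same gene differ. Over all genes with more than 1 probe set it had an SD on the log2 scale of 0.32 for the difference of 2 h from 0 h. For the 12 h array it was 0.34 when set against 0 h and 0.31 when set against 2 h.

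Of 10 macrophage markers, 9 were at or above the floor at each time, Csf1r, Cd14 and Cd68 among them, and only Mertk was under it throughout. Of markers of other cell types, 0 of 5 for T cells reached the floor at any time. At 0, 2 and 12 h the number that reached it was 0, 0 and 1 of 4 for B cells, 2, 1 and 3 of 4 for neutrophils, and 1 at each time of 4 for dendritic cells, of 5 for fibroblasts and of 4 for epithelial cells. Those with signals above it were the B cell gene Ms4a1, at 30.0, 24.0 and 54.6, the fibroblast gene Col1a2, at 60.04, 38.6 and 64.5, Zbtb46 for dendritic cells and Krt8 for epithelial cells, and Mpo, Elane and S100a8 for neutrophils.

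Lysosomes are acidic organelles in which macrophages break down engulfed microbes, dead cells and their own worn components. The vacuolar ATPase acidifies them: its membrane sector, V0, carries protons through a channel that its cytosolic sector, V1, drives by splitting ATP. Most hydrolases are made as inactive precursors, are carried from the Golgi by mannose 6-phosphate receptors and become active at low pH. Cathepsins also trim antigens for presentation and process Toll-like receptors. Many lysosomal genes hold a palindromic promoter element, known as CLEAR, that the transcription factor TFEB and its relatives bind.

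RefSeq promoter windows of GRCm38.p6, 250 bases before to 50 after each start, were available for 35 of the 42 members. Those not matched were Asah1, Atp6v1b2, Atp6v1c1, Atp6v1h, Ctsb, Ctsh and Npc1. They were searched for 3 nested palindromes, which read the same on both strands: CACGTG, the longer TCACGTGA that contains it, and the CLEAR consensus, which is TCACGTGA with a G before it and a C after it. CACGTG was found in 11 of the 35 members (31.4%), against 8.09% of all 27025 genes with a window and 10.8% of those on the array. The longer TCACGTGA was found in 5 members (14.3%), against 1.12% of all genes and 1.76% of those on the array. No member held the CLEAR consensus, which was in 0.37% of all genes and 0.556% of those on the array. Only exact matches were searched. At shares this low, 0 of 35 cannot show whether the members lack such elements. Mean GC content was 55.9% in the members' windows, against 53.8% in those of all genes and 59.0% in those of the genes on the array. The genes with TCACGTGA were Atp6v0d1, Atp6v1a, Ctsa, Ctsd and Gla, and those with CACGTG alone were Atp6v0b, Ctsl, Gaa, Glb1, Lamp1 and Lgmn. A match is a run of letters and not a shown binding site.

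Windows of 6 genes are printed from 250 bases before the start to 30 bases from it, because these genes carry the main contrasts among the results below: pump and protease genes with a match and signals above 0 h at 12 h, a protease gene with a match and little difference, the gene with the largest decrease, and the pump gene with the largest increase. Capitals mark CACGTG or TCACGTGA, and each is written 5′ to 3′ on the gene's own strand. Atp6v0d1 lies at chr8:105566035-105566314 on the minus strand, Atp6v1a at chr16:44139230-44139509 on the minus strand, Ctsd at chr7:142387798-142388077 on the minus strand, Ctsa at chr2:164833523-164833802 on the plus strand, Lgmn at chr12:102439063-102439342 on the minus strand and Atp6v0a1 at chr11:101010148-101010427 on the plus strand. Ctsa and Lgmn each had 2 annotated starts and the one with a match is shown; the window of Atp6v0a1 held none of the 3 palindromes.
Atp6v0d1: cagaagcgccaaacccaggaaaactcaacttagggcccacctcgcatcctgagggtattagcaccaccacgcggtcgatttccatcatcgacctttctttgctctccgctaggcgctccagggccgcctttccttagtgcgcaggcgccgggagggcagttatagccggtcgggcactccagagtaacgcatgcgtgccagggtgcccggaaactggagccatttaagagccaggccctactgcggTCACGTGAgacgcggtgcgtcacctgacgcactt
Atp6v1a: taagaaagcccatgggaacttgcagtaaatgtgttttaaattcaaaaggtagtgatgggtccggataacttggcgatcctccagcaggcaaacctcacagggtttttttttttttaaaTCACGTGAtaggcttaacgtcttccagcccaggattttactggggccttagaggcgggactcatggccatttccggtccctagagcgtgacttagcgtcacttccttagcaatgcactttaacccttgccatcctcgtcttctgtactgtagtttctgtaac
Ctsd: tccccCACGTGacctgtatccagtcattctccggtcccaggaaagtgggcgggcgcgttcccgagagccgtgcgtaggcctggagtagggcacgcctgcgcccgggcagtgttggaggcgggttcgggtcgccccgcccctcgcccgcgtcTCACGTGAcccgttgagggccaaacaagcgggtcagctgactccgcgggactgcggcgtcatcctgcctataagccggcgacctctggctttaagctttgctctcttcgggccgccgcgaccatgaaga
Ctsa: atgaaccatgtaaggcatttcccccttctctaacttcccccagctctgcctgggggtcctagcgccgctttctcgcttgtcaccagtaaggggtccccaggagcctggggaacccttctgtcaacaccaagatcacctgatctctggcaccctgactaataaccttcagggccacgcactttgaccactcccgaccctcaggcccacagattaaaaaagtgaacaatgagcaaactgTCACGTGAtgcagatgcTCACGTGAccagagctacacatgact
Lgmn: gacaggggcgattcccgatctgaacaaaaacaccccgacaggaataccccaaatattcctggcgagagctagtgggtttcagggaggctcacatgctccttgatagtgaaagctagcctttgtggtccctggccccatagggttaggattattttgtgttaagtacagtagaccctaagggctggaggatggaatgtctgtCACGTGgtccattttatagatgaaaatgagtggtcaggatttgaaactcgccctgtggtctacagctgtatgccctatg
Atp6v0a1: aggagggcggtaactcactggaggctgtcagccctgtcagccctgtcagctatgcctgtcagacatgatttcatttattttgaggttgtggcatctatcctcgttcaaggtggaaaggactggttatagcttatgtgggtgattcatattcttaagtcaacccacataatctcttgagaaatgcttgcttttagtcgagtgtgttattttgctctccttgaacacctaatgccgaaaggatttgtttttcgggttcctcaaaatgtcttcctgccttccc

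At 2 h of LPS no lysosomal member was 2-fold apart from 0 h, whereas at 12 h Atp6v0a1 and Acp5 were higher and Lgmn was lower. The 12 h count was thus 2 of 40 measured members higher, against 3.01% of all 8629 genes measured, and 1 of 40 lower, against 2.40%. At 2 h the count was 0 of 40 in either direction, against 2.09% of 8422 genes higher and 1.69% lower. These shares of all genes depended on scaling: with arrays set to one median, 225 genes were higher and 73 lower at 2 h, in place of 176 and 142. Between 12 h and 2 h, Atp6v0a1 was higher and Lgmn lower, 1 of 40 in each direction, against 2.65% of 8467 genes higher and 1.98% lower. With median scaling, 178 of all genes were higher and 226 lower in that comparison, in place of 224 and 168. In number, the members' 2-fold calls were therefore few and near the share in all genes.

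At a fold of 1.5 the members differed more from the rest at 12 h. Of 40 measured members, 13 were at least 1.5-fold higher, against 8.32% of all genes, and 3 were at least 1.5-fold lower, against 10.3%. At 2 h none was 1.5-fold apart in either direction, against 5.60% of all genes higher and 9.64% lower. Most members had signals well above the floor, whereas all measured genes include many near it. No share given for all genes is matched for brightness. The median log2 difference of the members was 0.02 at 2 h and 0.15 at 12 h, against -0.10 and -0.05 over all measured genes. Setting arrays to one median moved the median of genes above the floor at both times by 0.14 on the log2 scale at 2 h and by 0.04 at 12 h.

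Against 2 h, 9 of 40 members were at least 1.5-fold higher at 12 h, where 10.2% of all genes were, and 3 were at least 1.5-fold lower, where 6.45% were. The 9 were Acp5, Atp6v0a1, Atp6v0d1, Atp6v1a, Ctsk, Neu1, Npc1, Npc2 and Psap, and the 3 were Lgmn, Lipa and Man2b1. No member was 3-fold apart in any comparison. Of all genes, 1.03% were 3-fold higher and 0.154% lower at 2 h, and 1.17% higher and 0.313% lower at 12 h. Between 12 h and 2 h these shares were 0.65% and 0.567%.

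**Figure D1:**
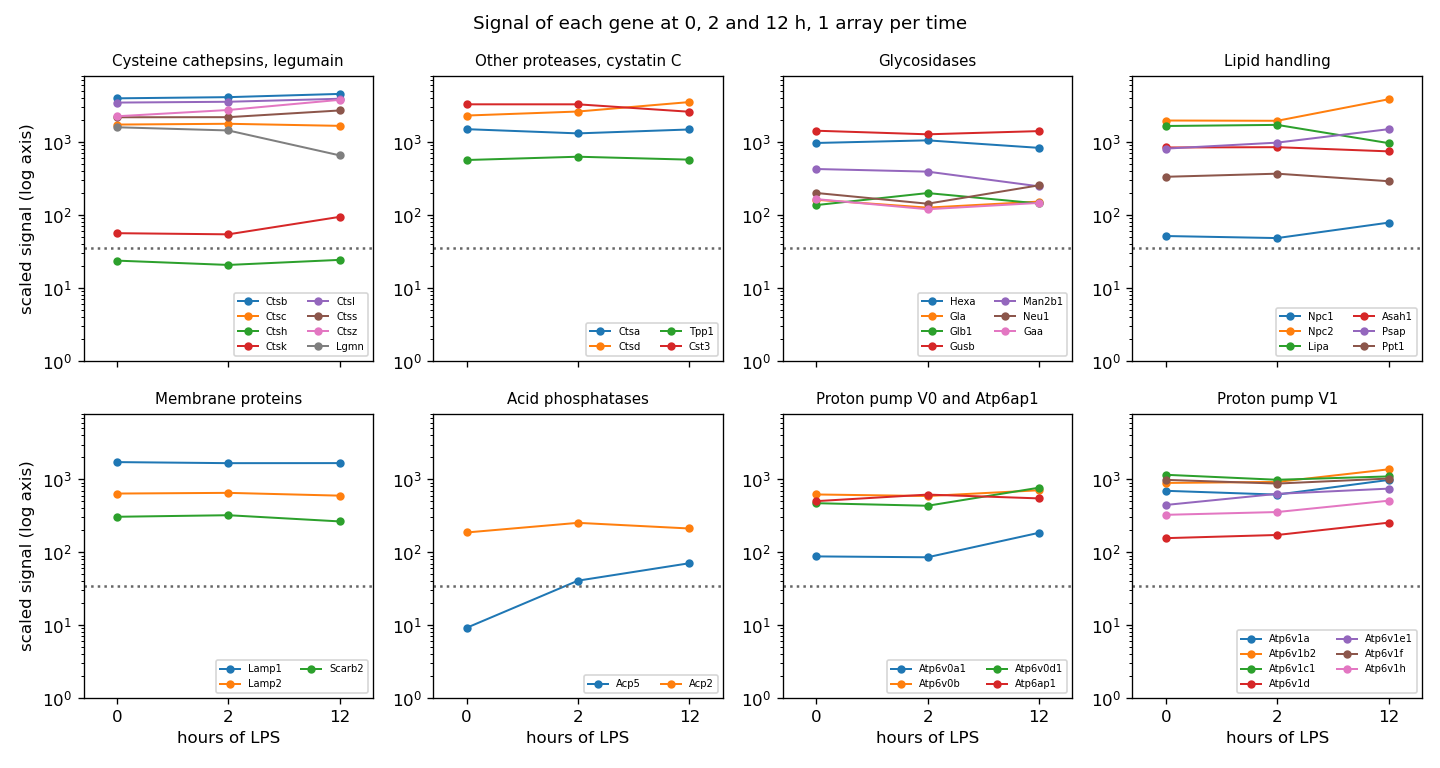
Scaled signal (log axis) of the brightest probe set of each of the 41 lysosomal genes against hours of LPS, with times evenly spaced and 1 array per time. The dotted line is the floor of 34.96; Lgmn, Lipa and Man2b1 are lowest at 12 h, while Npc2, Psap, Ctsz, Ctsd and most pump subunits are highest there.

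Among the cysteine cathepsins, the proteases that degrade most protein in the lysosome, Ctsz and Ctsk were past 1.5-fold higher at 12 h, and no cathepsin was 2-fold apart. Ctsz, a carboxypeptidase, had signals of 2242 at 0 h, 2734 at 2 h and 3768 at 12 h, 1.68-fold higher at 12 h than at 0 h. Its other 2 probe sets, which may read several genes, were 1.81-fold and 1.6-fold higher, so all 3 gave one direction and a similar size. Ctsk, the collagen-degrading cathepsin of osteoclasts, had signals of 55.8, 53.9 and 93.5 at 0, 2 and 12 h, 1.68-fold higher at 12 h. This signal lies near the floor. With a floor at the 60th percentile the 0 h signal fell under it. The log2 difference was then only a bound, at least 0.14, in place of 0.74.

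The other cysteine cathepsins moved little. Ctss, which cleaves the invariant chain of MHC class II, had 2173, 2179 and 2694 at the 3 times, 1.24-fold higher at 12 h. Ctsb, at 3951, 4102 and 4543, was 1.15-fold higher at 12 h, and Ctsl, at 3456, 3545 and 3898, was 1.13-fold higher. Both differences, and that of Ctss, are smaller than the spread between probe sets. A second bright probe set of Ctsb was 1.15-fold higher, and 2 dim ones were 1.15-fold and 1.10-fold lower. Ctsc, which activates granule serine proteases, was 1.04-fold lower at 12 h. Ctsh was under the floor at every time, with signals of 23.5, 20.5 and 24.0, so it has no fold.

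Lgmn was the member with the largest decrease. It encodes legumain, the asparaginyl endopeptidase that activates several cathepsins, and it had 1584, 1433 and 652 at 0, 2 and 12 h. It was 2.43-fold lower at 12 h than at 0 h and 2.2-fold lower than at 2 h, while the 2 h value was 1.11-fold lower than 0 h. The decrease therefore lay between the 2 later arrays. It was at least 2-fold under each of the 8 alternatives of scaling, floor and probe set, but it is read by 1 probe set.

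Of the remaining proteases, Ctsd, the aspartic cathepsin, had 2294, 2605 and 3511 at 0, 2 and 12 h and was 1.53-fold higher at 12 h. Ctsa, a serine carboxypeptidase that also protects neuraminidase and beta-galactosidase, had 1492, 1306 and 1478 and was 1.01-fold lower at 12 h. The windows of both genes, printed above, hold TCACGTGA. Tpp1, a tripeptidyl peptidase, was 1.01-fold higher at 12 h. Cst3 encodes cystatin C, the secreted inhibitor of cysteine cathepsins, and had 3271, 3270 and 2587, 1.26-fold lower at 12 h.

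The glycosidases, which strip sugars from glycoproteins and glycolipids, had 1 of 7 members at least 1.5-fold apart from 0 h at 12 h, a decrease, against 10.3% of all genes lower and 8.32% higher. Man2b1, the lysosomal alpha-mannosidase, had 424, 390 and 245 at 0, 2 and 12 h and was 1.73-fold lower at 12 h; its other probe set was under the floor throughout. Neu1, the sialidase, had 199, 142 and 253, so it was 1.40-fold lower at 2 h and 1.27-fold higher at 12 h, and 1.79-fold higher at 12 h than at 2 h. A dim probe set of Neu1 was 1.25-fold higher at 12 h than at 0 h. Glb1, the beta-galactosidase, went the other way, with 136, 198 and 143, 1.46-fold higher at 2 h and 1.05-fold higher at 12 h. Gaa, which degrades glycogen, and Gla, the alpha-galactosidase, were 1.38-fold and 1.28-fold lower at 2 h and 1.13-fold and 1.06-fold lower at 12 h. Hexa, a beta-hexosaminidase subunit, was 1.17-fold lower and Gusb, the beta-glucuronidase, 1.01-fold lower at 12 h.

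Lipid handling held differences in both directions at 12 h. Npc2, the soluble protein that carries cholesterol out of the lysosomal lumen, had 1961, 1944 and 3836 at 0, 2 and 12 h and was 1.96-fold higher at 12 h. Its second probe set had 1359, 1198 and 2833 and was 2.08-fold higher. Only the 12 h array was high, by both probe sets. Npc1, the membrane partner to which Npc2 hands cholesterol, had 51.1, 47.9 and 77.9 and was 1.53-fold higher at 12 h, from a signal near the floor. Psap, the precursor of the saposins that present sphingolipids to their hydrolases, had 807, 976 and 1491 and was 1.85-fold higher at 12 h. Its second probe set had 573, 837 and 884 and was 1.46-fold higher at 2 h and 1.54-fold at 12 h, which places more of the difference before 2 h than the brightest one does.

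Lipa, the acid lipase that frees cholesterol from its esters, was lower at 12 h by all 3 of its probe sets. The brightest, which may read several genes, had 1649, 1708 and 960 at 0, 2 and 12 h and was 1.72-fold lower at 12 h. The other 2 were 1.67-fold and 1.53-fold lower. Whether the decrease had begun at 2 h depended on the probe set, as these 2 were 1.2-fold and 1.41-fold lower at 2 h and the brightest 1.04-fold higher. Asah1, the acid ceramidase, was 1.13-fold lower at 12 h. Ppt1, a thioesterase that removes fatty acids from proteins, was 1.15-fold lower by one probe set and 1.41-fold by the other.

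The lysosomal membrane proteins were close to their 0 h signals by the brightest probe set. Lamp1, the abundant glycoprotein of the limiting membrane, had 1724, 1668 and 1670 at 0, 2 and 12 h. Lamp2, which serves chaperone-mediated autophagy, had 639, 653 and 598, but its 4 probe sets ran from a log2 difference of -0.13 to 0.44 at 12 h. Scarb2, which delivers glucocerebrosidase to lysosomes, had 307, 322 and 264.9 and was 1.16-fold lower at 12 h. Its second probe set had 248, 195 and 110 and was 2.26-fold lower, so the size of its decrease is uncertain.

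Acp5 encodes the tartrate-resistant acid phosphatase of osteoclasts and activated macrophages. It had 9.19, 40.8 and 70.7 at the 3 times, with the first under the floor, and was at least 1.17-fold higher at 2 h and at least 2.02-fold higher at 12 h than at 0 h. Its log2 difference was at least 2.71 with the floor at the 20th percentile, which the 0 h signal was still under. It was 1.78 with a pseudocount of 16, in place of at least 1.02. The gene had no value with the floor at the 60th percentile. Acp2, the ubiquitous lysosomal acid phosphatase, had 187, 253 and 212 and was 1.36-fold higher at 2 h and 1.13-fold higher at 12 h, whereas its other 2 probe sets were under 1.05-fold apart at 2 h and lower at 12 h.

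Because Acp5 and Ctsk also mark osteoclasts, 8 further osteoclast markers were read, 6 of them with a probe set. Their summed signal was 310 at 0 h, 335 at 2 h and 593 at 12 h. Most of that sum at 12 h was Mmp9, at 44.2, 55.4 and 288. Calcr and Itgb3 were under the floor at every time, and Ocstamp was under it at 0 and 12 h. Nfatc1 had 166, 178 and 218, and Oscar 61.9, 41.3 and 48.4. The part of these markers in the Acp5 and Ctsk values was not tested.

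Most of the proton pump members stood above their 0 h signal at 12 h. Of the 11 pump members measured, including the accessory protein gene Atp6ap1, 10 were above their 0 h signal and 6, Atp6v1e1 included, were at least 1.5-fold higher, against 8.32% of all genes. Their median log2 difference was 0.62 at 12 h, against -0.05 for all genes, and the 29 other measured members had a median of -0.01. At 2 h the pump median was -0.04, with 5 of 11 above 0 h. No scaling changed the direction at 12 h: the pump median was 0.56 to 0.67 over the deposited, median-scaled and quantile-normalized values. The size depended on the probe set, and so did the direction of some genes. By the median over each gene's probe sets the pump median was 0.25. Above 0 h were 10 of 11, with 3 at least 1.5-fold higher. There Atp6v1e1 was at -0.51, and Atp6v1c1, below 0 h by its brightest probe set, was at 0.01. Without probe sets that may read several genes, 7 of 9 were above 0 h and 5 at least 1.5-fold higher. Their median was 0.62. At 2 h, with median scaling, the pump median was 0.10.

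**Figure D2:**
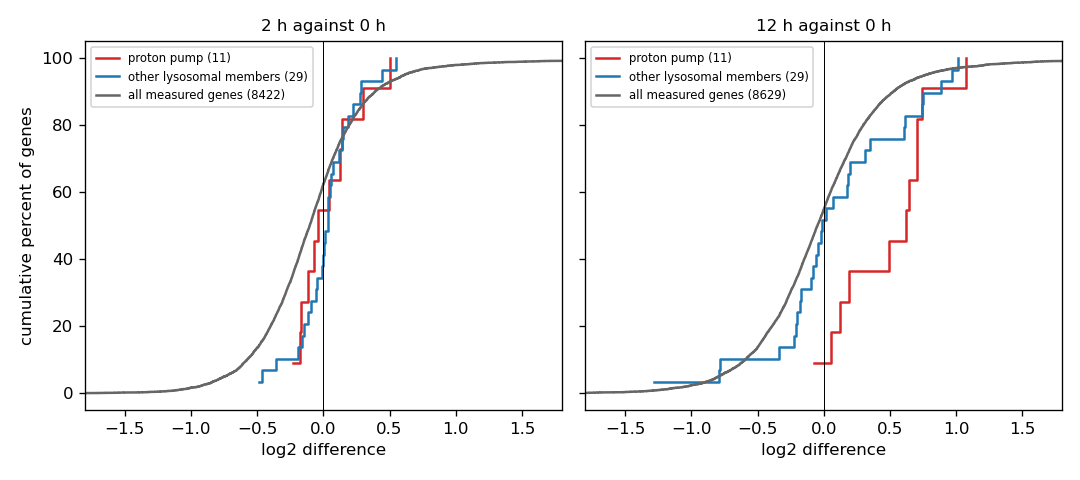
Cumulative percent of genes against the log2 difference in signal at 2 h and at 12 h, each against 0 h, for the 11 pump members, the other 29 measured lysosomal members and all measured genes. At 12 h the pump curve lies to the right of the others, with a median of 0.62, and at 2 h its median is -0.04.

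In the membrane sector, Atp6v0a1, the a1 isoform of the subunit that lines the proton path, had 87.7, 85.3 and 185 at 0, 2 and 12 h. It was 2.11-fold higher at 12 h than at 0 h and 2.17-fold higher than at 2 h. By the brightest probe set only the 12 h array was high. Of its other 3 probe sets, 1 was at least 3.62-fold higher at 12 h than at 0 h, 1 was 2.35-fold higher and 1 was 1.08-fold higher. Against 2 h the same 3 were 2.58-fold higher, 2.13-fold higher and 1.17-fold lower. With a pseudocount the log2 difference of Atp6v0a1 was 0.95 from 0 h and 0.99 from 2 h, both under 2-fold. By the median over probe sets it was 1.12 from 0 h and 0.88 from 2 h, the second under 2-fold. Atp6v0d1, which couples the sectors, had 471, 434 and 768 and was 1.63-fold higher at 12 h. Atp6v0b, a proteolipid of the rotor ring, had 620, 591 and 709 and was 1.14-fold higher at 12 h by the brightest of 3 probe sets, with the others at 1.65-fold and 1.07-fold. All 3 may read several genes. Atp6ap1 had 503, 618 and 548 and was 1.23-fold higher at 2 h and 1.09-fold higher at 12 h.

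In the cytosolic sector, 4 of 7 members, Atp6v1b2, Atp6v1d, Atp6v1h and Atp6v1e1, were at least 1.5-fold higher at 12 h by the brightest probe set, against 8.32% of all genes. The direction of Atp6v1e1 differed between probe sets, which leaves 3. Atp6v1b2, the B2 subunit of the ATP-splitting head that macrophages use, had 893, 922 and 1373 and was 1.54-fold higher; a second probe set was 1.19-fold higher. Atp6v1a, the catalytic subunit, had 697, 618 and 981, 1.41-fold higher than 0 h and 1.59-fold higher than 2 h, with 1.26-fold by its second probe set at 12 h against 0 h. Atp6v1d, of the central rotor stalk, had 156, 173 and 255 and was 1.63-fold higher, against 1.33-fold and 1.04-fold by its other probe sets. Atp6v1h, a regulatory subunit read by 1 probe set, had 326, 356 and 509 and was 1.56-fold higher. Each of Atp6v1a, Atp6v1b2, Atp6v1d and Atp6v1h had its highest signal at 12 h by the brightest probe set.

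Atp6v1e1, part of the peripheral stalk, had probe sets of both directions. Its brightest probe set, which may read several genes, had 445, 633 and 746 at 0, 2 and 12 h and was 1.67-fold higher at 12 h. A dim one had 49.95, 83.8 and 35.2 and was 1.68-fold higher at 2 h and 1.42-fold lower at 12 h. Atp6v1c1, also of the stalk, had 1155, 987 and 1097 and was 1.05-fold lower at 12 h, although a dimmer probe set was 1.38-fold higher. Atp6v1f had 984, 876 and 1025 and was 1.04-fold higher at 12 h. The pump windows with TCACGTGA printed above belong to Atp6v0d1 and Atp6v1a, while that of Atp6v0a1, with the largest pump difference, had no match. Atp6v0b, with CACGTG alone, was 1.14-fold higher at 12 h. Of the 11 members with CACGTG, only Atp6v0d1 and Ctsd were at least 1.5-fold higher at 12 h, against 13 of 40 measured members. A link between match and difference was not tested.

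**Figure D3:**
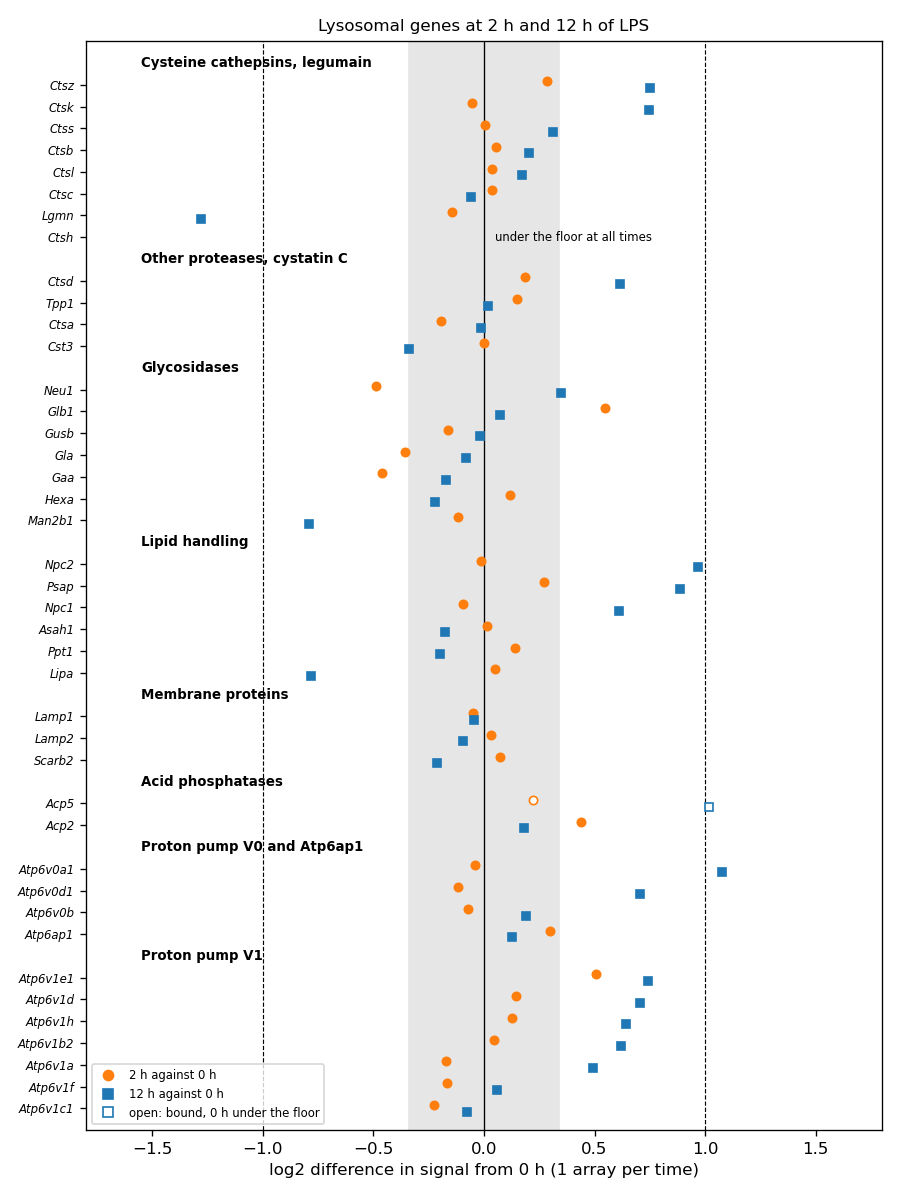
Log2 difference in signal at 2 h and 12 h against 0 h for each lysosomal gene, grouped by role, by its brightest probe set. The grey band is 1 SD between probe sets at 12 h (0.34), dashed lines mark 2-fold, and open symbols are bounds; Lgmn is at -1.28 at 12 h, and 10 of 11 pump genes lie above 0.

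Across all 78 probe sets, 72 were measured at 12 h or 0 h and 6 were under the floor at every time. At least 2-fold higher at 12 h were 5 of the 72, against 2.90% of all named probe sets, and 2 were at least 2-fold lower, against 2.53%. The higher ones were 3 of Atp6v0a1, 1 of Npc2 and that of Acp5, and the lower ones were those of Lgmn and Scarb2. At least 1.5-fold higher were 20, against 8.51%, and 6 were at least 1.5-fold lower, against 10.7%. Probe sets of one gene share its RNA and are not independent. Of 8 members at least 1.5-fold apart at 12 h with further probe sets at or above the floor at both times, 11 of 12 further ones had the same direction, the exception being Atp6v1e1. Of 12 members under 1.5-fold, 10 of 19 did. No gene had one probe set past 1.5-fold upward and another past it downward at 12 h against 0 h. At 2 h, 0 of 72 were 2-fold higher, against 2.25%, and 0 lower, against 1.59%. At 1.5-fold these counts were 1, of Atp6v1e1, against 5.96%, and 0, against 9.29%. For 12 h against 2 h, 4 of 72 were 2-fold higher, against 2.34%, and 2 lower, against 2.15%, the 2 being of Lgmn and Atp6v1e1. At 1.5-fold these counts were 16, against 9.57%, and 5, against 7.24%. The spread between probe sets of one member had an SD of 0.32 at 12 h over 20 genes, against 0.34 over all 2730 such genes.

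**Figure D4:**
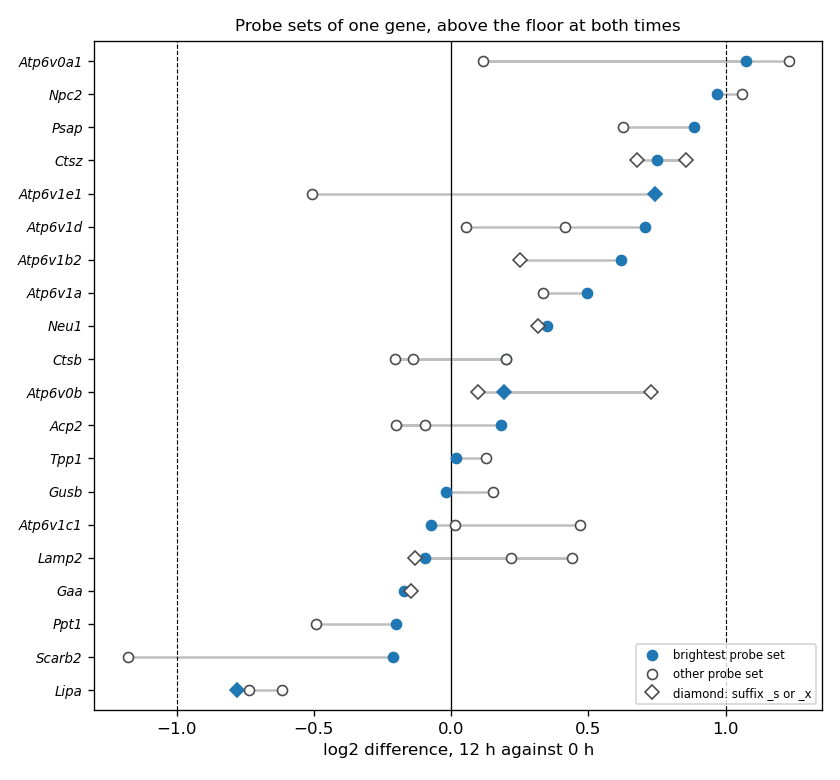
Log2 difference at 12 h against 0 h for each probe set of the 20 lysosomal genes that had more than 1 measured at both times. Filled symbols are the brightest probe set, diamonds have a suffix that marks possible cross-hybridisation, and dashed lines mark 2-fold; Atp6v1e1, Scarb2 and Atp6v0a1 have the probe sets that stand farthest below the brightest, and Npc2, Psap, Ctsz and Lipa have probe sets close together.

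Other genes of the lysosome were read from lists made for comparison. Of 40 further hydrolase and activator genes, 28 were measured at 12 h. Of these 1 was higher, against 3.01% of all genes, and 2 were lower, against 2.40%, both near the share in all genes. Below their 0 h signal were 21 of the 28, against 4717 of all 8629 genes, with a median log2 difference of -0.25 against -0.05. Pld3, a lysosomal nuclease, had 214, 220 and 508 at 0, 2 and 12 h and was 2.37-fold higher at 12 h. Hyal2, a hyaluronidase, had 117, 59.8 and 51.7 and was 2.26-fold lower at 12 h. With a floor at the 60th percentile its log2 difference was only a bound, -0.46 or lower. Man2b2, an alpha-mannosidase, had 76.2, 59.1 and 37.7 and was 2.02-fold lower at 12 h. None was 2-fold apart at 2 h, against 2.09% of all genes higher and 1.69% lower. Hyal2 had the largest difference there, at 1.95-fold lower. Ctsf, a cysteine cathepsin, had 143, 234 and 114 and was 2.04-fold lower at 12 h than at 2 h.

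Of 24 further lysosomal and endosomal membrane proteins and transporters measured, 4 were higher at 12 h, against 3.01% of all genes, and none was lower, against 2.40%. At 2 h, 2 of 22 were higher, against 2.09%, and the genes past 2-fold were transporters and a channel. Slc15a3, a peptide and histidine transporter, had 111, 309 and 1201 at 0, 2 and 12 h and was 10.8-fold higher at 12 h. Slc11a2, an iron transporter of endosomes, had 109, 279 and 480 and was 4.41-fold higher at 12 h, and the median over its probe sets gave a log2 difference of 1.11 in place of 2.14. Slc11a1, the phagosomal metal transporter also known as Nramp1, had 521, 731 and 1500 and was 2.88-fold higher at 12 h. Mcoln2, an endolysosomal cation channel, had 36.9, 46.6 and 103 and was 2.80-fold higher at 12 h. With the floor at the 60th percentile its log2 difference was only a bound, at least 0.29. Each of these 4 genes had a higher signal at 12 h than at 2 h.

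Of 9 further pump and assembly genes measured at 12 h, none was higher, against 3.01% of all genes, and 1 was lower, against 2.40%. This was Dmxl1, which takes part in pump assembly, with 71.2, 25.9 and 31.2 at 0, 2 and 12 h. Its decrease was at least 2.04-fold at both later times. The median over these 9 was 0.09 on the log2 scale at 12 h, and 6 were above their 0 h signal. At 1.5-fold, 0 of the 9 were higher, against 8.32% of all genes, and 2 were lower, against 10.3%. The 2 were Dmxl1 and Atp6v0e2, which had 176, 112 and 107 and was 1.64-fold lower at 12 h. Of 23 regulators and sorting genes, 1 was higher at 2 h, against 2.09% of all genes, and 1 was lower, against 1.69%. At 12 h 2 were higher, against 3.01%, and 0 lower, against 2.40%. Tfec, a relative of TFEB, had 77.7, 247 and 161 and was 3.18-fold higher at 2 h and 2.07-fold at 12 h. Flcn, a regulator of TFEB, had 144, 71.4 and 148 and was 2.02-fold lower at 2 h and 2.08-fold higher at 12 h than at 2 h. By the median over its probe sets, the log2 difference of Flcn for 12 h against 2 h was 0.38 and not 1.05. Its decrease at 2 h kept 2-fold in only 2 of 8 alternatives of scaling, floor and probe set. Gga1, a sorting adaptor, had 16.3, 56.9 and 92.6 and was at least 2.65-fold higher at 12 h. With a floor at the 60th percentile its log2 difference was at least 0.13. Tfeb itself, named here after its values were seen, had 111, 63.2 and 65.1 and was 1.75-fold lower at 2 h and 1.70-fold lower at 12 h.

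Of 25 autophagy genes, Sqstm1, the cargo receptor p62, and Atg7 were higher at 2 h, against 2.09% of all genes, and Pik3c3 was lower, against 1.69%. Sqstm1 had 1070, 2496 and 2393 at 0, 2 and 12 h and was 2.24-fold higher at 12 h. It was the only one of the 25 past 2-fold there, against 3.01% of all genes higher and 2.40% lower. Atg7, which starts the conjugation of LC3, had 43.6, 91.4 and 62.0. Its log2 difference at 2 h was 1.07, but 0.65 by the median over probe sets and 0.85 with a pseudocount. Under a floor at the 60th percentile it was only a bound, at least 0.11. Pik3c3, the lipid kinase of autophagosome formation, had 99.3, 46.7 and 65.4, a log2 difference of -1.09 at 2 h. Under that higher floor it had only a bound of -0.23 or lower. Only 2 of the cathepsin inhibitors other than Cst3 were measured; Cstb, encoding stefin B, was 1.16-fold higher at 12 h and Serpinb6a had its largest difference, 1.28-fold higher, at 2 h. The decreases of Dmxl1, Flcn, Pik3c3 and Man2b2 were under 2-fold with arrays set to one median and under quantile normalization.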

How the data were processed

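Labelled RNA from 5 µg of total RNA was hybridised to Affymetrix-type arrays in 1 colour, 1 array per time, by a modified Affymetrix procedure per the labels' protocols. Per sample the authors deposited linear intensity values of 22690 probe sets (64 were controls); these had the same trimmed mean on each array. The scanner software is not given in the sources used here. A platform table gave 20393 probe sets a single gene, and 20364 of these matched RefSeq GRCm38.p6 by gene identifier; 12393 genes were left.

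All arrays were then set to one 2% trimmed mean without the controls, a change of less than 0.16% in any value. The floor was set at the 40th percentile before log2 was taken. With 1 array per time no test was made, and the number of arrays limits the precision. Python 3.11.15, pandas 2.3.3, NumPy 2.4.6 and SciPy 1.17.1 were used.

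The members, roles and lists were chosen with earlier results of these data known. Every member was named, with signals at all times for those at least 1.5-fold apart in a comparison and for the extremes of each role. From other lists, genes at least 2-fold apart were named, up to 6 per list and comparison, or else the largest difference. Alternatives changed the scaling, floor, probe set and fold.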

Additional observations from a re-analysis of the deposited data

How the results depend on the processing

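With 1 array per time nothing could be left out, and no paired analysis was possible because there were no replicates to pair. Depth is limited by signal over the floor: Acp5, Ctsk and Npc1 lie near it and Ctsh under it. Of 947 recomputed log2 differences of members over 8 alternatives of scaling, floor and probe set, 925 moved by less than the SD between probe sets and 22 by more, 12 of these when probe sets were replaced by their median. Atp6v1e1 was among these, at -0.51 in place of 0.74 for 12 h against 0 h. The median of the members ran from -0.01 to 0.17 at 2 h, from 0.07 to 0.20 at 12 h and from 0.10 to 0.23 for 12 h against 2 h. Members higher at 2 h numbered 1 in place of 0 with the floor at the 20th percentile and with a pseudocount, in each case Acp5. Members higher at 12 h numbered 1 in place of 2 with the floor at the 60th percentile and with a pseudocount, 3 with median scaling and with the median over probe sets, where Npc2 was added at a log2 difference of 1.01, 13 at 1.5-fold and 0 at 3-fold. Members lower at 12 h numbered 3 in place of 1 at 1.5-fold and 0 at 3-fold. For 12 h against 2 h, members higher numbered 0 in place of 1 with a pseudocount, 1 by the median over probe sets, where it was Npc2 at 1.11 in place of Atp6v0a1, 9 at 1.5-fold and 0 at 3-fold; members lower numbered 2 in place of 1 with the median over probe sets and without suffixed probe sets, where Atp6v1e1 was added, 3 at 1.5-fold and 0 at 3-fold. Lgmn was 2-fold lower at 12 h under all 8 alternatives, though with 1 probe set the probe-set settings could not change it. The other lysosomal lists were recomputed by alternatives chosen after the data were seen. In these, Pld3, Slc11a1, Slc11a2, Slc15a3 and Sqstm1 kept 2-fold at 12 h under all 8. Of them only Slc11a2 had more than 1 probe set, so the probe-set settings could not change the rest. Tfec had a log2 difference of 0.92 to 1.13 at 12 h. The cause of each move was not tested beyond what the setting itself changes.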
